A study of Mus musculus with 3 samples.

Results

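Interferon-stimulated genes are the genes that cells switch on after an interferon binds its receptor. The 42 described here were taken by symbol from a list that spans the transcription factors of the response, the ISG15 pathway, RNA sensors and effectors, membrane proteins, inducible GTPases and other responders. All 42 had a row among the 31053 genes of the deposited matrix. The members were chosen by name, and none of the 91 lineage markers that defined the cell classes is a member.

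Cells came from the livers of Ai14 (LSL-Tomato) mice, whose red fluorescent reporter is switched on by Cre recombinase. Mice received 20a-LNP or 20mix-LNP, lipid nanoparticles that carried Cre mRNA at 0.3 mg/kg, or PBS, and non-parenchymal cells were sorted 3 h later. The strain was shared by the 3 groups. No source at hand gives the age or number of mice, or the populations collected in the sort. Each treatment gave 1 droplet library; the particles hold 20α-hydroxycholesterol (20a) or a mixture with its 20β epimer (20mix), as known of the study.

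The 3 libraries sit in 1 matrix and are told apart by the barcode suffixes 1, 2 and 3. No source used here ties a suffix to a treatment. Values are therefore given per cell class and per suffix, with no effect of either particle. A difference between suffixes holds treatment, mouse and handling together, and these cannot be told apart.

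Type I interferons signal through the receptor chains IFNAR1 and IFNAR2 and the kinases JAK1 and TYK2. The resulting complex ISGF3, which holds STAT2 and IRF9, binds the interferon-stimulated response element (ISRE). Interferon gamma signals through IFNGR1 and IFNGR2 and acts at the gamma-activated sequence (GAS), and the targets of both kinds of interferon overlap. In the liver, sinusoidal endothelial cells and Kupffer cells face the blood and are known to take up particles from it, and plasmacytoid dendritic cells are known for making type I interferon.

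The promoters of the members show these elements in their letters. RefSeq windows on GRCm38.p6 (the build called mm10) were at hand for 32 of the 42 members, and the 250 bases before each start were searched on both strands. An ISRE was taken as GAAA, any 2 bases and GAAA, and a GAS as TTCNNNGAA, with overlapping matches counted. Of the 32 members, 17 (53.1%) held an ISRE, against 3.46% of 27025 genes with a window. A GAS stood in 9 members (28.1%), against 8.13% of all genes. Both elements stood in 6 members (18.8%), against 0.459% of all genes; these were Bst2, Gbp5, Gbp7, Igtp, Irgm2 and Oas1a. Among role groups, the inducible GTPases held an ISRE in 7 of the 8 members with a window. A match is a description of the letters, and binding was not measured.

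The following 140 bases end at the base before the RefSeq start. They are shown because they carry the elements of genes to which the results return. Capitals mark the ISRE and GAS matches, which run together where they overlap. Isg15 (ENSMUSG00000035692) is read from the minus strand of chr4:156200819-156200958 and holds 3 overlapping ISRE matches. Ifit1 (ENSMUSG00000034459) is on the plus strand at chr19:34640749-34640888, with 2 ISRE matches in the reverse orientation. Bst2 (ENSMUSG00000046718) is on the minus strand at chr8:71537473-71537612, with a GAS that overlaps the first of 2 overlapping ISRE matches. Gbp7 (ENSMUSG00000040253) is on the plus strand at chr3:142530196-142530335, with 2 GAS matches and 1 ISRE. Igtp (ENSMUSG00000078853) and Irgm2 (ENSMUSG00000069874) are on the plus strand at chr11:58199416-58199555 and chr11:58214837-58214976.
Isg15: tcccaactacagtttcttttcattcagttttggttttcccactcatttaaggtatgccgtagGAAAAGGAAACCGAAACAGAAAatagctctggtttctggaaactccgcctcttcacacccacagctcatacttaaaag
Ifit1: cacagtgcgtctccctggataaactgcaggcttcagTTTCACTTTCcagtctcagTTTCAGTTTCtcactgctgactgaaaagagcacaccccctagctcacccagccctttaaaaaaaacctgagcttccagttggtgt
Bst2: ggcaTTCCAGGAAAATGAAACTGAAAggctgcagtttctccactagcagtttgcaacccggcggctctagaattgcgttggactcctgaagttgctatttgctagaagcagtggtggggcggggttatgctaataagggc
Gbp7: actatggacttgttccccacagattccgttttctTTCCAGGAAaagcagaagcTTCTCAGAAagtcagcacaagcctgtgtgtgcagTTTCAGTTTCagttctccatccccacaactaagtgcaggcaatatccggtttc
Igtp: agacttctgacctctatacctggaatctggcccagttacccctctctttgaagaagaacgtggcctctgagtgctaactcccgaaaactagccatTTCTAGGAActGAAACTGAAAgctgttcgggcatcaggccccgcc
Irgm2: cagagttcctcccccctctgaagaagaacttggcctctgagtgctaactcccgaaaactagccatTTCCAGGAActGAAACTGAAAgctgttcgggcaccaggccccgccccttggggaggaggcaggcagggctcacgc
The Igtp and Irgm2 windows are near copies: 100 of 110 aligned bases are equal, and in both a GAS stands next to an ISRE. The annotated Irgm2 gene starts upstream of this window and overlaps Igtp on the same strand, so reads of these 2 genes may not be fully told apart. Ifi47, Ifitm2, Gbp7, Rtp4, Irf9, Parp14 and Herc6 also overlap another annotated gene on the same strand, and the same limit holds for their levels.

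The matrix held 4638 barcodes and 24111183 UMIs, with 6144949, 8754827 and 9211407 under suffixes 1, 2 and 3. The filter of at least 200 genes and at most 20% mitochondrial UMIs kept 3230 cells, with a median of 5690.5 UMIs, so that suffixes 1, 2 and 3 lost 37.2%, 34.2% and 21.8% of their barcodes. Each pair of suffixes shared 1 barcode sequence. Marker gates named 2609 cells in 11 classes, each with its own markers and none of another class among its 10 leading genes. Of the classes, 5 had at least 30 cells in every library and are compared: 199 Kupffer-like, 893 sinusoidal endothelial-like (LSEC-like), 370 plasmacytoid dendritic-like (pDC-like), 132 nonclassical monocyte-like and 645 NK-like or ILC1-like (NK/ILC1-like) cells. Hepatocyte markers summed to 341, 174, 27.1, 100.2 and 55.5 CPM in the same order. Haemoglobin and erythroid markers summed to 2808 CPM in LSEC-like cells, 1 of which held over 100 such UMIs.

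Levels below are UMIs of a class divided by all UMIs of that class, scaled as CPM (UMIs per 1000000). The chemistry counts the 3′ end of each transcript, so levels are not scaled by gene length. Brackets give exact Poisson 95% intervals. They cover counting error only and hold no variation between mice, libraries or cells. Treatments have 1 library each and cells are not replicates, so treatments were not compared. Classes were set side by side within each library, as ratios, and no test was run on the 3 libraries. Highest, next and lowest class refer to the 5 compared classes unless another class is named.

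Summed over the 42 genes and scaled to all UMIs, the level among the 5 compared classes was highest in Kupffer-like cells at 8089 CPM [7896 to 8286], followed by pDC-like cells at 7858 CPM [7769 to 7948]. Nonclassical monocyte-like cells had 7694 CPM, LSEC-like cells 6121 CPM and NK/ILC1-like cells 2723 CPM. The first 3 classes did not keep their order across libraries: Kupffer-like over pDC-like was 1.10, 1.09 and 0.941 in suffixes 1, 2 and 3. The order also turned with the scaling: with mitochondrial, ribosomal, haemoglobin and hepatocyte genes left out of the total, pDC-like cells had 10457, nonclassical monocyte-like cells 9846 and Kupffer-like cells 9748 CPM. NK/ILC1-like cells were the lowest class in each library, and the LSEC-like sum was 2.16, 2.35 and 2.27 times theirs.

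Bst2, which encodes tetherin, a protein that holds budding virus at the cell surface, carried much of the pDC-like sum. It stood at 3355, 3599 and 3505 CPM in suffixes 1, 2 and 3 of that class, against 539, 553 and 539 CPM in LSEC-like cells, the next class. The pooled ratio was 6.45 [6.19 to 6.73], and the libraries of the classes did not overlap. In mice, tetherin is also the antigen of antibodies used to recognise plasmacytoid dendritic cells. Bst2 made up 44.5% of the members' UMIs there, 8.85% in LSEC-like cells and 4.95% in Kupffer-like cells.

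Without Bst2, Kupffer-like cells had 7688 CPM and nonclassical monocyte-like cells 7560 CPM, against 4363 CPM in pDC-like cells. The Kupffer-like sum was then 1.76 times the pDC-like one [1.71 to 1.81], and above it in 3 of 3 libraries. LSEC-like cells, with 5579 CPM, passed pDC-like cells by 1.28-fold [1.25 to 1.30]. Leaving out a gene of this size thus turned that order round in each library.

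The sums remained led by few genes. The 5 highest members held 86.7% of the UMIs in pDC-like, 79.2% in nonclassical monocyte-like, 62.6% in NK/ILC1-like, 58.7% in Kupffer-like and 54.6% in LSEC-like cells. Without the 4 membrane proteins and Ifi27l2a, the sum of the other 37 genes was 3342 CPM for Kupffer-like and 3142 CPM for LSEC-like cells, against 1601, 1519 and 1510 CPM in nonclassical monocyte-like, pDC-like and NK/ILC1-like cells. On these 37 genes the classes formed 2 levels about 2-fold apart, and within each level the order changed between libraries.

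**Figure D1:**
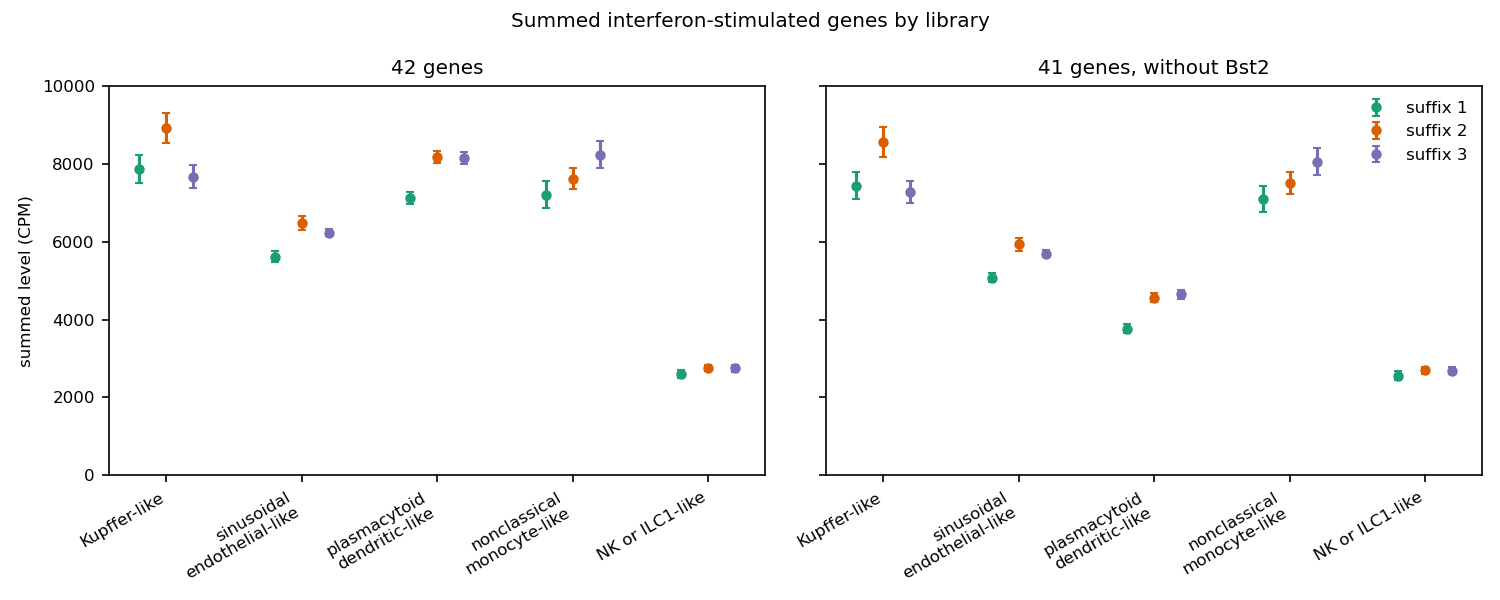
Summed level in CPM of the 42 genes (left) and of the 41 without Bst2 (right) for each compared class and barcode suffix; bars are exact Poisson 95% intervals (counting error only). pDC-like cells stand near Kupffer-like cells on the left and below LSEC-like cells on the right, and NK/ILC1-like cells are lowest in both.

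The number of members at an appreciable level divided the classes in another way than the sums. At 50 CPM or more stood 33 of 42 members in Kupffer-like cells and 27 in LSEC-like cells, against 15 in nonclassical monocyte-like cells and 13 each in pDC-like and NK/ILC1-like cells. The median member had 79.7 CPM among Kupffer-like and 76.8 CPM among LSEC-like cells, against 37.2, 28.7 and 27.7 CPM in the other classes in the same order. LSEC-like cells were the highest class for 15 members, Kupffer-like for 12, pDC-like for 8, nonclassical monocyte-like for 4 and NK/ILC1-like for 3. No share over all genes stands beside these counts or those at 50 CPM, so they only describe levels. LSEC-like cells were 2-fold above each other compared class for 27.7% to 31.5% of all genes. The other way the share was 14.9% to 20.2%. For 25 of the 42 the highest class was the same in 3 of 3 libraries. With the 6 smaller classes counted too, 16 members were highest in one of those, 10 of them in neutrophil-like cells.

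Counts of members past 2-fold with intervals apart can be read against all genes at a mean of 20 CPM or more. Kupffer-like cells were that much above pDC-like cells for 24 of 40 members tested, against 18.5% of all genes, and above NK/ILC1-like cells for 24 of 37, against 19.4%. They were above nonclassical monocyte-like cells for 19 of 40, against 13.4%. LSEC-like cells were above pDC-like cells for 20 of 35, against 30.3%, above NK/ILC1-like cells for 20 of 34, against 27.7%, and above nonclassical monocyte-like cells for 18 of 37, against 31.5%. Between the classes with the most members at 50 CPM or more the picture was different. Kupffer-like cells were above LSEC-like cells for 10 of 39 members, against 14.9%. LSEC-like cells were above Kupffer-like cells for 3 of 39, against 29.9%. Those 3 were Ifi44, Ifitm2 and Iigp1. In the other direction, pDC-like cells exceeded Kupffer-like cells for 2 of 40 members (Usp18 and Bst2), against 22.0% of all genes, and LSEC-like cells for 4 of 35 (Ifi27l2a, Bst2, Mx1 and Ly6e), against 20.2%. Nonclassical monocyte-like cells exceeded Kupffer-like cells for 2 of 40 (Ifitm3 and Zbp1), against 14.9%.

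**Figure D2:**
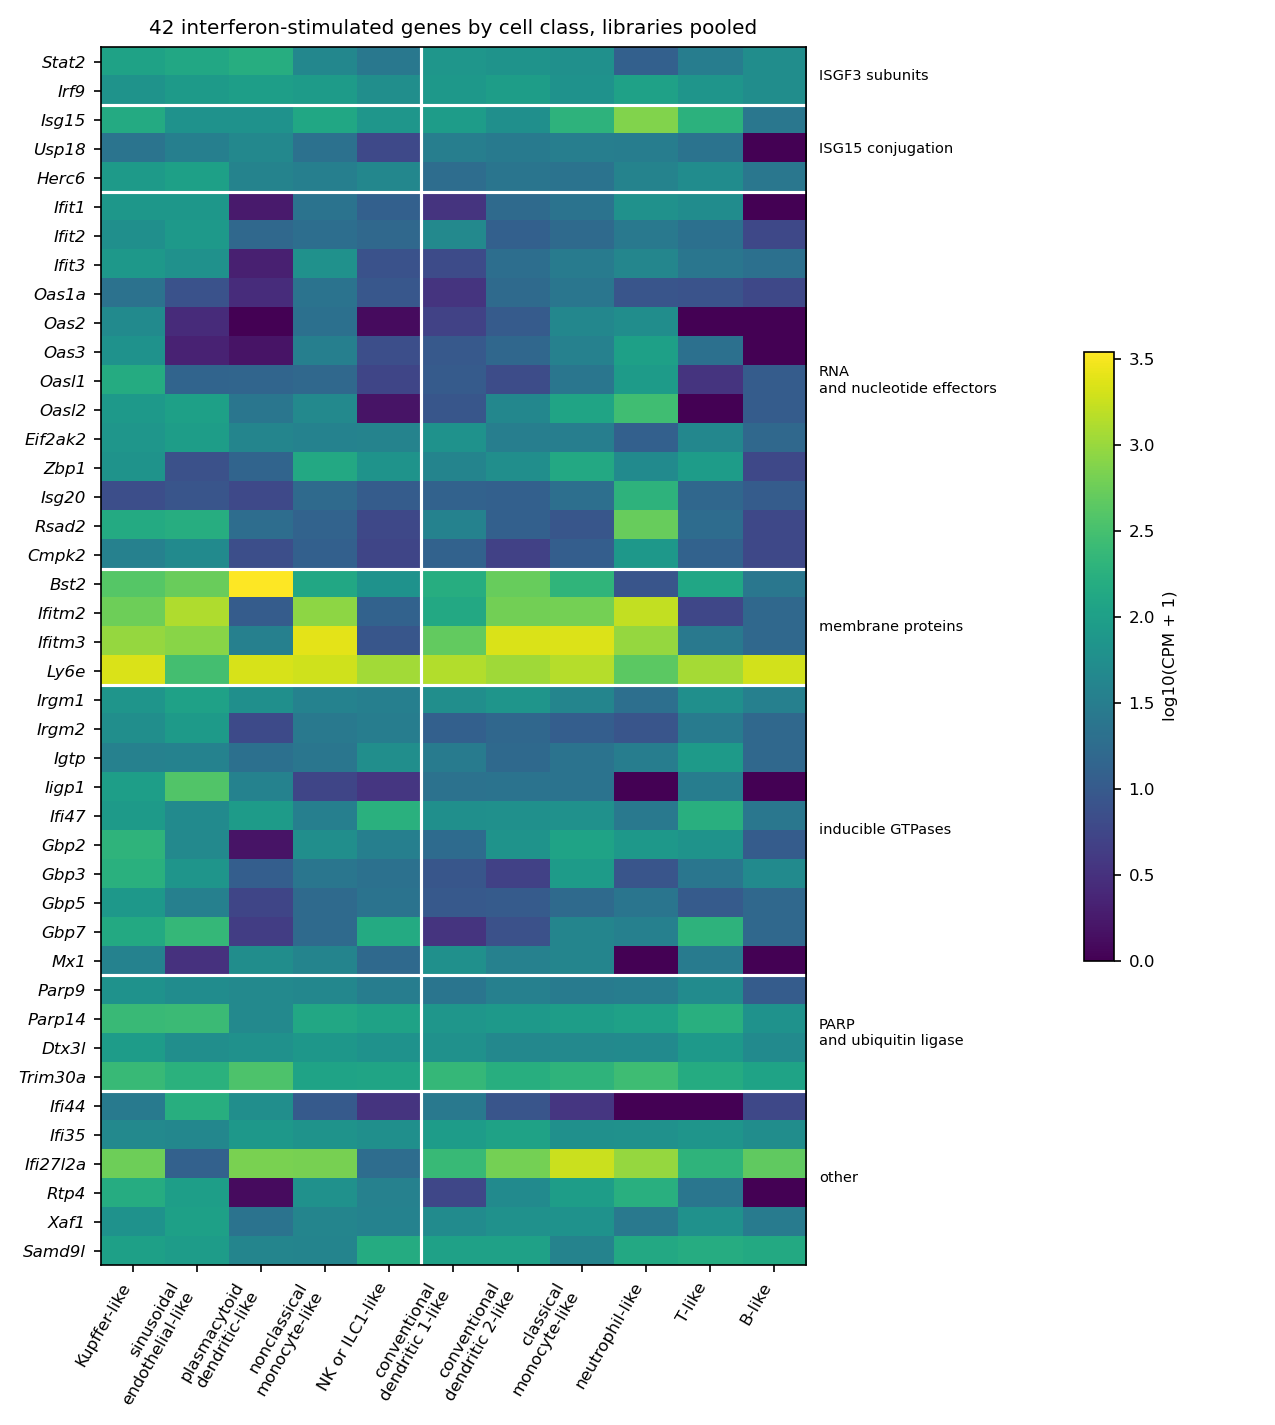
Level of each of the 42 members as log10(CPM + 1), libraries pooled, in the 5 compared classes (left of the white line) and the 6 classes with fewer than 30 cells in some library (right). Rows are grouped by role; Bst2 in pDC-like cells is the brightest cell, and Oas2 has no UMI in pDC-like, T-like and B-like cells.

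The members that encode ISGF3 subunits were led by pDC-like cells. Stat2, the subunit used by type I and III interferons, had 155, 167 and 159 CPM in suffixes 1, 2 and 3 of that class, and 114, 153 and 134 CPM in LSEC-like cells. The pooled ratio was 1.21 [1.09 to 1.36], and the ranges of the libraries did not overlap. Irf9, the DNA-binding subunit, was flatter across classes, between 95.8 CPM in pDC-like and 54.7 CPM in NK/ILC1-like cells.

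Among the genes of the ISG15 pathway, Isg15 encodes a ubiquitin-like protein that is coupled to other proteins. It had 157, 164 and 122.9 CPM in suffixes 1, 2 and 3 of Kupffer-like cells, and 40.8, 107 and 235 CPM in nonclassical monocyte-like cells. These overlap, and the pooled ratio of 1.14 [0.872 to 1.49] includes 1. Usp18, which removes ISG15 and restrains IFNAR2, was highest in pDC-like cells at 44.6 CPM. Its pooled ratio to LSEC-like cells, the next class, was 1.36 [1.09 to 1.70], but it was 0.711 in suffix 1. Herc6, the mouse ligase for ISG15, stood at 101.2 CPM in LSEC-like and 84.0 CPM in Kupffer-like cells.

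The sum of the 13 RNA and nucleotide effectors was 899 CPM for Kupffer-like and 654 CPM for LSEC-like cells, against 446, 173 and 137 CPM in nonclassical monocyte-like, NK/ILC1-like and pDC-like cells. Rsad2 (viperin, which makes a chain-terminating nucleotide) had 97.7, 182 and 177 CPM in suffixes 1, 2 and 3 of LSEC-like cells and 99.0, 227 and 126 CPM in Kupffer-like cells. In both classes suffix 1 was the lowest, and the classes overlapped. Its chromosomal neighbour Cmpk2, a mitochondrial nucleotide kinase, followed with 48.4 CPM in LSEC-like and 35.3 CPM in Kupffer-like cells.

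Oasl1, an OAS-like protein known in mice to limit translation of Irf7, had the largest ratio of its highest to its next class among the 42 members when the 5 compared classes are ranked. It had 132, 164 and 155 CPM in suffixes 1, 2 and 3 of Kupffer-like cells, against 4.08, 18.7 and 18.6 CPM in nonclassical monocyte-like cells, the next class. The ratio was 10.3 [5.81 to 19.9]. Of the smaller classes, neutrophil-like cells had 87.0 CPM of Oasl1 and classical monocyte-like cells 23.9 CPM. Oas2 and Oas3, which make the oligoadenylates that activate RNase L, stood at 48.7 and 63.3 CPM in Kupffer-like cells, the highest of the 5 compared classes, and at 53.0 and 102.1 CPM in neutrophil-like cells. In LSEC-like cells they were at 1.77 and 1.18 CPM, whereas Ifit1, Ifit2 and Ifit3 stood at 74.2, 79.3 and 60.4 CPM there. Oas2 had no UMI in pDC-like cells, which allows up to 0.796 CPM.

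Ifit1, Ifit2 and Ifit3, which bind foreign RNA and block its translation, stood above 50 CPM in both LSEC-like and Kupffer-like cells. Ifit1 had 44.9, 94.1 and 81.0 CPM in suffixes 1, 2 and 3 of LSEC-like cells and 78.3, 114 and 40.97 CPM in Kupffer-like cells. In pDC-like cells Ifit1 had 0.796 CPM and Ifit3 had 1.06 CPM, all of it in suffix 3. Oasl2 showed 104 CPM in LSEC-like cells and 0.539 CPM in NK/ILC1-like cells. Zbp1, a sensor of Z-form nucleic acid that can trigger cell death, was highest in nonclassical monocyte-like cells, with 97.9, 157 and 142 CPM in suffixes 1, 2 and 3, against 49.5, 92.7 and 58.5 CPM in Kupffer-like cells. That ratio was 2.07 [1.49 to 2.91]. How reads shared by near-identical copies of the Ifit, Oas and Gbp genes were counted is unknown from these sources, so these levels are uncertain to that degree.

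The membrane proteins were highest in different classes. Ifitm3, which blocks fusion of virus with the endosome membrane, led in nonclassical monocyte-like cells, with 2477, 2439 and 2636 CPM in suffixes 1, 2 and 3, against 862, 1108 and 966 CPM in Kupffer-like cells. Ifitm2 led in LSEC-like cells, with 1357, 1073 and 1357 CPM, against 877, 785 and 981 CPM in nonclassical monocyte-like cells. Ly6e, a lipid-anchored protein that restricts coronavirus entry, led in Kupffer-like cells with 2218 CPM and was within 1.04-fold of that in pDC-like cells. In LSEC-like cells Ly6e was at 308 CPM. Both Ifitm genes were low in both remaining classes: Ifitm2 had 9.82 CPM in pDC-like and 12.1 CPM in NK/ILC1-like cells, and Ifitm3 had 34.0 and 7.81 CPM.

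The inducible GTPases, most of which act on the membranes around intracellular microbes, summed to 1031 CPM in LSEC-like and 974 CPM in Kupffer-like cells. In NK/ILC1-like, pDC-like and nonclassical monocyte-like cells they summed to 539, 277 and 271 CPM. Iigp1 (Irga6) had 377, 358 and 380 CPM in suffixes 1, 2 and 3 of LSEC-like cells, against 90.7, 147 and 67.3 CPM in Kupffer-like cells. The pooled ratio was 3.86 [3.08 to 4.89]. The guanylate-binding proteins were divided. Gbp2 had 206, 223 and 184 CPM in Kupffer-like cells, against 28.6, 29.4 and 116 CPM in nonclassical monocyte-like cells, and Gbp3 and Gbp5 were also highest in Kupffer-like cells, 2.54-fold and 2.25-fold above LSEC-like cells. Gbp7 instead led in LSEC-like cells with 228 CPM, followed by NK/ILC1-like cells with 148 CPM.

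NK/ILC1-like cells, lowest in most groups, led for Ifi47 and Igtp (Irgd and Irgm3). Ifi47 had 178, 179 and 180 CPM there in suffixes 1, 2 and 3, against 60.3, 91.7 and 101 CPM in pDC-like cells, a ratio of 2.09 [1.83 to 2.40]. Mx1, a dynamin-like restriction factor, had its highest level in pDC-like cells at 53.9 CPM and was at 2.17 CPM in LSEC-like cells. Nonclassical monocyte-like cells were next at 38.3 CPM. That ratio of 1.41 [0.975 to 2.09] includes 1, and it was 0.560 in suffix 1.

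In the PARP and ubiquitin ligase group, Parp14, a mono-ADP-ribosyltransferase, was nearly equal in LSEC-like and Kupffer-like cells, at 258 and 252 CPM. Trim30a, a TRIM-family protein, was highest in pDC-like cells, with 274, 412 and 368 CPM in suffixes 1, 2 and 3, against 214, 295 and 231 CPM in Kupffer-like cells. Its ratio was 1.46 [1.26 to 1.70] although the ranges overlap. Among the other members, Ifi44 had 135, 198 and 167 CPM in LSEC-like cells, against 21.9, 71.9 and 67.1 CPM in pDC-like cells. Ifi27l2a, a small interferon-induced protein, was alike in pDC-like (671 CPM), nonclassical monocyte-like (664 CPM) and Kupffer-like cells (577 CPM), and at 17.2 CPM in NK/ILC1-like cells. Samd9l, a translation-restricting protein, led in NK/ILC1-like cells with 150 CPM. Rtp4, a receptor transporter, had 157 CPM among Kupffer-like and 0.265 CPM among pDC-like cells.

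Levels were then compared between libraries within each class, first in pDC-like cells. Of the 23 members tested there, 7 differed 2-fold or more between the highest and lowest suffix with intervals apart, against 1.66% of all genes: Isg15, Ifi44, Ifitm3, Iigp1, Usp18, Mx1 and Parp14. In each of the 7 the lowest library was suffix 1, against 0.634% of all genes called in that direction. The other 19 members were under the minimum of 20 CPM. Under TMM scaling 6 of the 7 still passed, and Parp14 did not.

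Isg15 had 11.9, 79.9 and 86.2 CPM in suffixes 1, 2 and 3 of pDC-like cells, and its highest library was 7.25 times the lowest [4.07 to 14.0]. Mx1 had 18.3, 70.4 and 66.3 CPM, a ratio of 3.85 [2.36 to 6.58], and Usp18 had 17.4, 57.2 and 54.1 CPM. In these genes suffixes 2 and 3 were close to each other and suffix 1 stood apart. Ifitm3 did otherwise, with 12.8, 63.8 and 20.6 CPM, so that suffix 2 stood alone. Of the 128 Ifitm3 UMIs in these cells, 86 lay in 5 of 370 cells, 24 of them in 1 cell of suffix 2, and 32 cells had a UMI. Without a minimum level, Rsad2, Ifit2 and Oasl1 were also past the limits in this class, each highest in suffix 3. Rsad2 and Oasl1 were lowest in suffix 1, and Ifit2 in suffix 2. The highest cell held 33 of 47 Rsad2, 19 of 40 Ifit2 and 11 of 31 Oasl1 UMIs of suffix 3. No share of all genes without a minimum is given for them. Stat2 and Irf9, the ISGF3 subunits, had overlapping intervals in the 3 libraries of these cells, with 155, 167 and 159 CPM and 91.4, 96.8 and 98.4 CPM.

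By any amount, suffix 1 was the lowest library for 20 of the 23 members in pDC-like cells, against 37.5% of all genes. In LSEC-like cells it was lowest for 29 of 34, against 33.7%, and in nonclassical monocyte-like cells for 21 of 31, against 34.3%. In NK/ILC1-like cells it was 12 of 23, against 34.9%, and in Kupffer-like cells 18 of 41, against 38.7%. The last count is near the background.

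**Figure D3:**
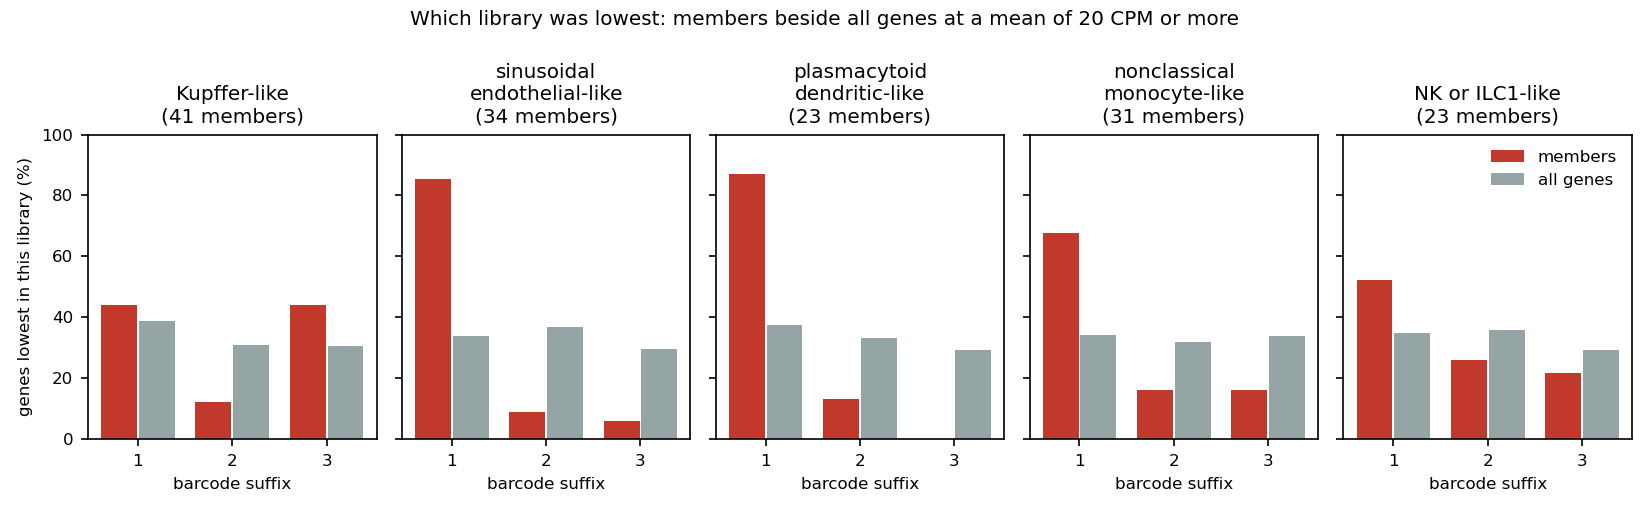
Share of genes whose lowest library was suffix 1, 2 or 3, for members (red) and all genes (grey) at a mean of 20 CPM or more, in each compared class. Suffix 1 was lowest for 29 of 34 members in LSEC-like cells and 20 of 23 in pDC-like cells, while the grey bars lie between 29.3% and 38.7%.

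In LSEC-like cells 5 of 34 members passed the same limits, against 2.01% of all genes, and suffix 1 was lowest in each, against 0.968%. Isg15 had 40.97, 99.95 and 62.0 CPM in suffixes 1, 2 and 3, a ratio of 2.44 [1.71 to 3.51]. Ifit3 had 35.5, 91.8 and 62.0 CPM, a ratio of 2.59 [1.77 to 3.82]. Suffix 2 was highest for Isg15, Ifit1, Ifit3 and Cmpk2, and suffix 3 for Igtp. Iigp1, the leading GTPase of these cells, had overlapping intervals in the 3 libraries. Without a minimum level, Isg20, Ifi27l2a and Zbp1 were also past the limits, each highest in suffix 2. For Ifi27l2a, 36 of its 59 UMIs lay in 1 cell of suffix 2, with a depth of 12929 UMIs. The highest cell for Zbp1 and Isg20 had the same suffix and depth. It held 14 of the 17 Zbp1 UMIs and 5 of the 18 Isg20 UMIs of suffix 2. Suffix 1 had 4 Zbp1 UMIs. No share of all genes without a minimum stands beside these genes.

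**Figure D4:**
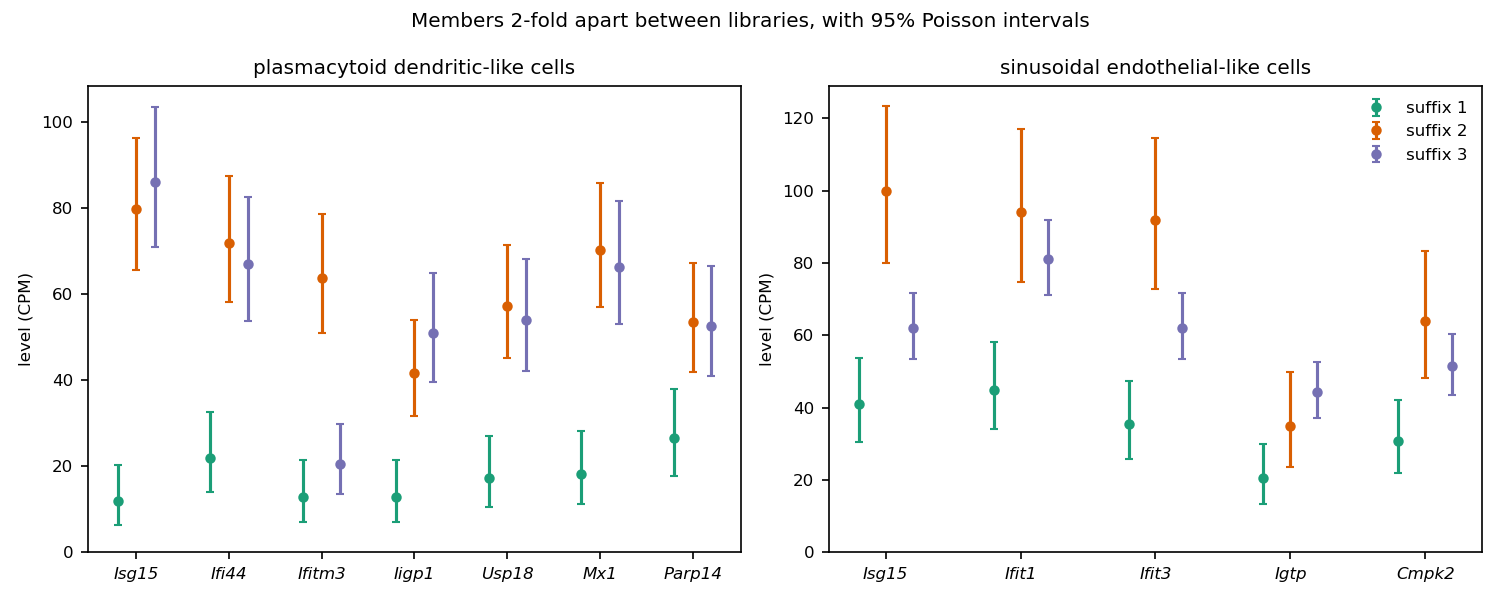
Levels in CPM, with exact Poisson 95% intervals, of the members 2-fold apart between libraries in pDC-like (left) and LSEC-like cells (right). Suffix 1 is the lowest point for each of the 12 gene and class pairs.

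In NK/ILC1-like cells 2 of 23 members passed, against 1.88% of all genes: Eif2ak2 (PKR, which halts translation on double-stranded RNA), lowest in suffix 1, and Gbp5, lowest in suffix 2. Below the minimum level, Ifit1 and Ifitm2 also passed there, with no share of all genes beside them. In nonclassical monocyte-like cells 4 of 31 passed, against 3.56%: Isg15, Ifit1, Ifit3 and Gbp2, each lowest in suffix 1 (1.27% of all genes) and highest in suffix 3 (1.57%). Ifit1 had 0, 24.0 and 37.3 CPM in that class, and against the limit of 3 counts its suffix 3 level was at least 3.05-fold higher than suffix 1. In Kupffer-like cells 7 of 41 passed, against 4.07%: Ifit1, Ifit2, Iigp1, Oasl2, Rsad2 and Cmpk2 were highest in suffix 2, against 1.96%, and Ifi47 was highest in suffix 1.

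The Kupffer-like and nonclassical monocyte-like differences rested on few cells. In Kupffer-like cells 1 cell of suffix 2 held 268 UMIs of the 37 members other than the membrane proteins and Ifi27l2a, which is 9.76% of the class's UMIs for them. It had UMIs of 36 of the 42 members and the highest count, or an equal one, for 21 of them. It held 35 of 121 Rsad2 UMIs, 25 of 80 Iigp1 UMIs and 20 of 60 Ifit1 UMIs. Its depth was 9513 UMIs, against a class median of 3136, with 63 UMIs of Kupffer markers and at most 7 of any other class. Without this cell only Ifi47 stayed past the limits, 1 of 40 members tested.

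The suffix 2 Kupffer-like sum without Bst2 was 8556 CPM with that cell and 7526 CPM without it, beside 7430 CPM in suffix 1 and 7270 CPM in suffix 3. Immediate early genes moved with this library too: they summed to 672, 2110 and 1381 CPM in suffixes 1, 2 and 3 of Kupffer-like cells. Hepatocyte markers did likewise, with 210, 615 and 243 CPM. Their part in the result was not tested.

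In nonclassical monocyte-like cells 1 cell of suffix 3 held 59 of 113 Isg15 UMIs and 25 of 55 Ifit3 UMIs. Without it, Isg15 had 15.6 CPM in suffix 3 and 107 CPM in suffix 2, so suffix 3 was then the lowest library for Isg15. Of the 28 Ifit3 UMIs in suffix 3, 25 lay in the removed cell, against 26 Ifit3 UMIs in suffix 2. Suffix 3 was thus no longer highest for Ifit3. Isg15, Ifit3 and Gbp2 passed the limits, 3 of 29 members tested, but Isg15 and Ifit3 no longer with suffix 3 highest. With all cells, 3.56% of all genes passed in this class. Ifit1 did not pass, and suffix 1 was lowest for 15 members. In pDC-like cells the same 7 members passed without the highest cell, and suffix 1 was lowest for 19 of 23. Removing 1 cell cannot show whether a few cells carried these calls. For each gene there, the 5 highest of 370 cells held 67.2% of Ifitm3, 58.0% of Iigp1, 43.5% of Usp18 and 41.7% of Isg15 UMIs. For Mx1, Ifi44 and Parp14 the shares were 37.9%, 21.0% and 20.5%. In NK/ILC1-like cells Gbp5 alone passed without the highest cell. In LSEC-like cells 6 passed without it, the same 5 and Rsad2. The LSEC-like cell removed lay in suffix 1, the lowest library for each of the 5. Its removal therefore cannot show whether those calls rest on few cells. It held 27 of the 802 Rsad2 UMIs of the class. Removal of the highest cell was chosen after the values were seen.

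In pDC-like cells, median depth was 11761, 10657 and 11447 UMIs in suffixes 1, 2 and 3, and the median mitochondrial share was 6.43%, 6.50% and 6.17%. Immediate early genes summed to 3410, 3506 and 2993 CPM. In LSEC-like cells, median depth was 5810, 5429 and 5622 UMIs and hepatocyte markers summed to 176, 311 and 134 CPM. Hepatocyte markers were thus highest in suffix 2, as Isg15 was in these cells, and lowest in suffix 3. The part of any of these values in the results was not tested.

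Concentration in few cells was common among the members. For each gene with 20 to 500 UMIs in a class, the share of its UMIs in the 5 highest cells was set beside genes of like total. In pDC-like cells 26 of 27 such members were above the median gene and 20 were above the 90th percentile. The counts were 23 and 12 of 25 in nonclassical monocyte-like, 26 and 17 of 30 in NK/ILC1-like, 31 and 15 of 37 in Kupffer-like, and 19 and 13 of 24 in LSEC-like cells. These counts are a description, with no test.

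Rsad2 is an example: 57 of its 65 UMIs in pDC-like cells lay in 5 of 370 cells, and UMIs were found in 13 cells. Isg15 had UMIs in 17 of 132 nonclassical monocyte-like cells and 99 of its 113 UMIs in 5. Irf9 was different: 5 pDC-like cells held 27 of its 361 UMIs, or 7.48%, against 7.59% for the median gene of 200 to 500 UMIs. The cell with most UMIs of the 37 members held members at 17216 CPM among pDC-like cells, against 1519 CPM over the class. Among LSEC-like cells the like values were 24942 and 3142 CPM, and that cell held 1.15% of the class's UMIs for these genes.

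**Figure D5:**
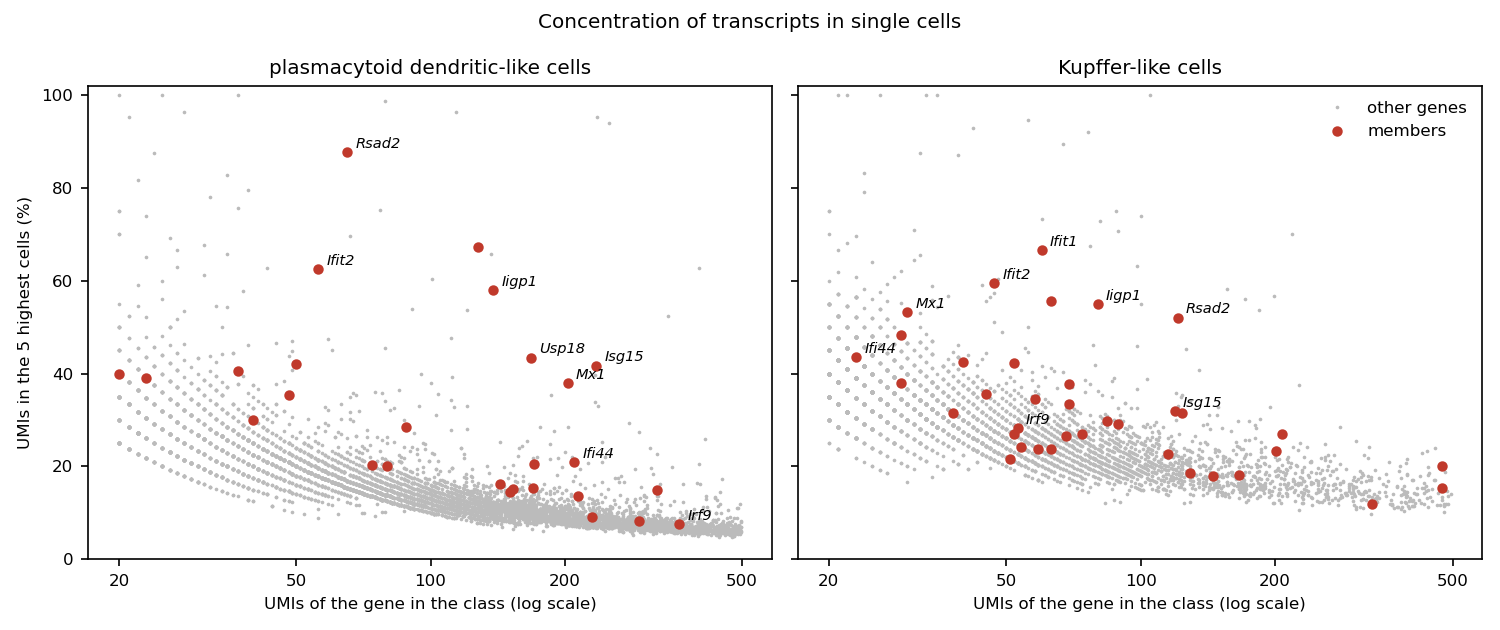
Share of a gene's UMIs in its 5 highest cells against its total UMIs (log scale) in pDC-like (left) and Kupffer-like cells (right); members are red and other genes grey. Of the members, 26 of 27 in pDC-like and 31 of 37 in Kupffer-like cells lie above the median of genes of like total.

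The genes of interferons and of their signalling were read in the same cells. Of 21 interferon genes, Ifng alone had UMIs in the 11 classes. For each type I or III gene a count of 0 allows up to 0.796 CPM in pDC-like cells, so a level under that is not excluded at this depth. Ifng, which encodes interferon gamma, had 575, 236 and 287 CPM in suffixes 1, 2 and 3 of NK/ILC1-like cells and 290 CPM in T-like cells. Suffix 1 was the highest library for Ifng in NK/ILC1-like cells, past the 2-fold limits, and no class besides these 2 exceeded 3.45 CPM.

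The receptor chains split by class. Ifnar1 and Ifnar2 were highest in pDC-like cells at 202 and 309 CPM, where Ifngr1 was lowest at 30.8 CPM. Ifngr1 led in nonclassical monocyte-like cells with 682 CPM, followed by Kupffer-like cells with 394 CPM. Ifngr2, the signalling chain of that receptor, had 0.808 CPM in NK/ILC1-like and 2.38 CPM in T-like cells, against 102.2 CPM in Kupffer-like cells. No receptor gene passed the limits between libraries among the 4 tested in NK/ILC1-like cells and the 5 tested in each other compared class.

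Among kinases and transcription factors, Jak1 stood at 1279 CPM in LSEC-like cells, against 446 CPM in NK/ILC1-like cells, and Irf8, a lineage factor of dendritic cells, at 3634 CPM in pDC-like cells. Irf7, the master regulator of type I interferon genes and itself induced by interferon, was highest in Kupffer-like cells at 363 CPM. Irf7 had 161, 235 and 239 CPM in suffixes 1, 2 and 3 of pDC-like cells and 38.6, 89.5 and 43.4 CPM in LSEC-like cells. In LSEC-like cells it was the 1 of 10 tested genes of its list past the limits, against 2.01% of all genes. In nonclassical monocyte-like cells 2 of 11 passed, Irf1 and Irf8, both lowest in suffix 3, against 3.56%. In Kupffer-like, pDC-like and NK/ILC1-like cells 0 of 11 passed, against 4.07%, 1.66% and 1.88%. Of 6 negative regulators, 5 were tested in nonclassical monocyte-like cells and 1 passed, Socs3, highest in suffix 1 and lowest in suffix 3. Suffix 1 was highest for 5 of 5 there. In each other compared class 0 of 4 or 5 passed, and suffix 1 was highest for 2. The share of all genes highest in suffix 1 by any amount is not given here.

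Other targets of interferon gamma were counted in the same way. Suffix 1 was lowest for 2 of 8 tested genes of that list in LSEC-like cells, against 33.7% of all genes, and for 2 of 8 in pDC-like cells, against 37.5%. It was lowest for 1 of 10 in Kupffer-like cells, against 38.7%, for 5 of 9 in NK/ILC1-like cells, against 34.9%, and for 7 of 10 in nonclassical monocyte-like cells, against 34.3%. In Kupffer-like cells 3 of 10 tested genes of the list passed the 2-fold limits, against 4.07% of all genes. They were Cxcl9, Cxcl10 and Nlrc5, each highest in suffix 2, against 1.96% of all genes. Their levels without the highest Kupffer-like cell, which also lay in suffix 2, are not given here. Cxcl10, a chemokine for T cells, had 351, 117 and 207 CPM in suffixes 1, 2 and 3 of LSEC-like cells, so that suffix 1 was highest and suffix 2 lowest. Cxcl9 had 375, 423 and 302 CPM in the same cells. In nonclassical monocyte-like cells Cxcl10 had 12.2, 147 and 227 CPM, with suffix 1 lowest.

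The 6 smaller classes are described with their libraries pooled. Classical monocyte-like cells (36) had the highest sum of the 11 classes at 8264 CPM, led by Ifitm3 with 2259 CPM and Ifi27l2a with 1807 CPM. Neutrophil-like cells (65) had 7554 CPM and the highest level of Isg15 and Rsad2 in any class, at 741 and 518 CPM. Ifi44, Iigp1 and Mx1 had no UMI in them, where a count of 0 allows up to 11.3 CPM. Their sum was 4170, 9938 and 9793 CPM in suffixes 1, 2 and 3, from 28, 23 and 14 cells, and 62 of 137 Rsad2 UMIs lay in 1 cell.

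Conventional dendritic 2-like cells (77) had 6523 CPM, and conventional dendritic 1-like cells (80) had 3849 CPM. In the conventional dendritic 1-like class, 1 cell of suffix 3 held 460 UMIs of the 37 members, 24.8% of the class, with 48 of 57 Ifit2 and 63 of 116 Isg15 UMIs. T-like cells (64) had 3620 CPM and, like NK/ILC1-like cells, Gbp7 and Ifi47 among their 5 highest members, at 193 and 171 CPM. B-like cells (48) had 3423 CPM, of which Ly6e made up 59.0%.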

How the data were processed

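Single-cell libraries were made from sorted liver cells by the 10x droplet method. The deposited matrix holds raw counts of UMIs per gene and barcode, made with Cell Ranger 3.1.0, per the file headers. The submitters' processing notes also name STAR, Seurat and edgeR, and the build mm10. The counting of reads shared by several genes is not stated in those sources. The sample sheets carry no map of suffixes to treatments and were not used.

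Barcodes with at least 200 genes and at most 20% mitochondrial UMIs were kept. A cell was named from raw counts of lineage markers (at least 4 UMIs over at least 2 marker genes), and it was left out as mixed where another passing class held over 50% of its leading sum. These thresholds were set, and Cd3g was dropped from the T-cell markers, after the data were seen. No doublet caller was run. UMIs were summed per class and suffix and divided by the class total to give CPM. A gene was called different where 2 values were at least 2-fold apart with exact Poisson 95% intervals that did not overlap and their equally weighted mean was at least 20 CPM. Ratio intervals are exact conditional ones. A count of 0 was given the limit of 3 counts per library or class. The genes named were the 5 highest members of each class, the 2 to 4 highest of each role group, members 2-fold above the next class at 50 CPM or more, members called between suffixes, and the 2 to 4 highest of each pathway list. Others were named after their values were seen. The members, lists and rules were chosen with earlier results of these data known.

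Alternatives changed the cell filter, gate, denominator, scaling, weight of cells, depth, libraries and minimum level. The procedure was also run on simulated data, but the setting and outcome are not given here, so nothing about the calls is read from that. Python 3.11.15, numpy 2.4.6, scipy 1.17.1, pandas 2.3.3, matplotlib 3.10.9, R 4.3.3 and edgeR 4.0.16 (for TMM factors alone) were used.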

Additional observations from a re-analysis of the deposited data

Results flagged for a closer look

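The members were also found in barcodes that no comparison above uses. A sum over 42 genes is bound to pass the limit for a count of 0, so the values are given as a description and nothing is read from that limit. In the 1408 barcodes removed by the cell filter they summed to 3792 CPM of non-mitochondrial UMIs. In the 467 kept cells of no class they summed to 5482 CPM, and in the 122 mixed cells to 6000.1 CPM. All 3230 kept cells had 6097 CPM on the same scale. Without Bst2 the removed barcodes had 3543 CPM, against 5126 CPM in kept cells.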

How the results depend on the processing

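No paired analysis was possible because each treatment has 1 library and no suffix is tied to a treatment; classes were set side by side within each library, and those ratios were not tested. Over all alternatives, 105 values stayed within their limits and 74 moved, and 8 to 10 of the 10 class pairs kept the order of their sums. Sums are given in CPM in the order Kupffer-like, LSEC-like, pDC-like, nonclassical monocyte-like and NK/ILC1-like cells where all moved. The cause of these moves was not tested beyond what each setting changes by construction.

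TMM scaling gave 8711, 5355, 8161, 8152 and 2626, and without Bst2 8280, 4881, 4531, 8010 and 2566. It shifted all genes by 0.11 in Kupffer-like and -0.19 in LSEC-like cells on the log2 scale. Leaving mitochondrial, ribosomal, haemoglobin and hepatocyte genes out of the total gave 9748, 7069, 10457, 9846 and 3585, and without Bst2 9265, 6444, 5805, 9674 and 3502. The filter of 500 genes and 10% gave 9148 in Kupffer-like, 6365 in LSEC-like and 8215 in pDC-like cells, and without Bst2 8699 in Kupffer-like and 5787 in LSEC-like cells. It left 83 of 199 Kupffer-like, 566 of 893 LSEC-like and 287 of 370 pDC-like cells. The stricter gate gave 7749 in pDC-like and 7404 in nonclassical monocyte-like cells, and without Bst2 4290 and 7327. The mean over cells gave 7320 in pDC-like, 7273 in nonclassical monocyte-like and 2829 in NK/ILC1-like cells, and without Bst2 4242, 7173 and 2775. Thinning to 1000 UMIs gave 7736 in Kupffer-like, 7535 in pDC-like and 2795 in NK/ILC1-like cells, and without Bst2 7380 in Kupffer-like and 2751 in NK/ILC1-like cells. Leaving out each library gave 7750 to 8389, 5966 to 6289, 7685 to 8159, 7458 to 7879 and 2692 to 2756, and without Bst2 7336 to 7987, 5421 to 5747, 4211 to 4605, 7348 to 7735 and 2634 to 2688.

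Without the highest cell of each class, an alternative chosen after seeing the data, the sum was 7791 in Kupffer-like (7389 without Bst2) and 7375 in nonclassical monocyte-like cells (7266 without Bst2), and 4289 without Bst2 in pDC-like cells. Calls between suffixes were then 1 in Kupffer-like and 1 in NK/ILC1-like cells. With a minimum of 5 CPM, and with none, there were 8 calls in LSEC-like and 4 in NK/ILC1-like cells. With a minimum of 50 CPM there were 3 in LSEC-like, 3 in pDC-like and 0 in NK/ILC1-like cells, and 131 over all class pairs, against 197. TMM gave 4 in Kupffer-like cells and 6 of the same 7 in pDC-like cells, without Parp14. Of the 5 compared classes, Kupffer-like cells had the fewest UMIs, 821625, so genes at 20 CPM rest on few counts there, and intervals hold no variation between mice.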
